A study of Mus musculus with 5 samples.

Results

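Tumor cells with no transcript of any of 11 cell cycle genes were compared with the islet alpha cells that carry the same knockout and the highest Slc38a5 level, under the same cell cycle rule. Cells entered when the unique molecular identifiers (UMIs, 1 per captured transcript) of Mki67, Top2a, Cdk1, Birc5, Ube2c, Cenpf, Ccnb1, Ccnb2, Ccna2, Nusap1 and Tpx2 were all 0. The rule left 2439 of the 6645 cells of the series, 1559 from 3 tumor libraries and 880 from 1 homozygous islet library. Tumor libraries A, B and C, named here in the order of the sample names in the tumor table, gave 350 of 513, 595 of 855 and 614 of 1099 cells. The islet cells were 880 of the 948 cells of the cluster that the authors numbered 2.1, picked because Slc38a5 was high in it.

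Tumors and homozygous islets both came from mice homozygous for a knockout of Gcgr, the glucagon receptor. Another group, islets of mice heterozygous for Gcgr, served only as a reference for levels. All cells were dissociated and captured in droplets with a Chromium kit that reads the 3′ ends of polyadenylated RNA, and no treatment was given. The labels give no age, strain or sex, no number of animals behind each islet library and no statement that the tumor libraries came from separate animals, so p-values here measure the spread between these libraries only.

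Glucagon from alpha cells acts on the liver receptor to raise glucose output and amino acid breakdown. When the receptor is lost, blood amino acids rise and alpha cells multiply, and over time neuroendocrine tumors can form. Slc38a5, a transporter of glutamine and related amino acids, marks the alpha cells that take part in that expansion. Immediate early genes are transcription factors and feedback regulators that cells switch on within minutes of a stimulus, through serum response factor, CREB and related factors. NF-kappaB is a transcription factor held inactive by inhibitors such as Nfkbia, which it switches on itself.

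The non-cycling tumor cells held more immediate early and NF-kappaB feedback transcripts than cluster 2.1 in each of the 3 tumor libraries. Of 28 immediate early genes tested, 27 were higher in each tumor library, 4 passed the adjusted threshold and the median difference was 2.48 on the log2 scale. Of all 9902 genes tested, 51.8% were higher in each tumor library, 0.121% passed and the median gene was 0.29 higher. Fosb, a subunit of the AP-1 transcription factor, was at 646 CPM (UMIs of the gene per 1000000 of the cell's deposited total, averaged over cells) as the tumor mean against 11.3 in cluster 2.1. Tumor cells outside the rule, pooled over libraries, held 579 CPM of Fosb and 335 of Nfkbia, whose non-cycling tumor mean was 345. The high levels of these genes were thus not limited to non-cycling tumor cells. Glucagon, alpha cell transcription factors and nuclear respiratory chain genes did not pass the threshold in either direction. Transcripts of the other islet hormones, Ppy, Pyy, Sst, Iapp, Ins1 and Ins2, were lower in each tumor library than in cluster 2.1, and none of those differences passed the threshold.

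Before any difference, the libraries themselves differed. Median UMIs per member cell were 18430.5, 26141 and 18356 in tumors A, B and C and 14508 in cluster 2.1, and the mitochondrial share was 1.26%, 1.23%, 2.11% and 0.67%. Xist, the RNA of the inactive X chromosome, was at 1584 and 1782 CPM in tumors A and B, 0.18 in tumor C and 0.059 in cluster 2.1. The Y-linked gene Ddx3y was at 0.43 and 0.49 CPM in A and B, 72.4 in C and 45.7 in cluster 2.1. Tumor C thus shared the sex-linked pattern of the islet library and A and B did not, so each level is given by library. The authors normalized the islet and tumor tables separately. The totals in the headers are those of all UMIs in the islet tables and of exonic UMIs in the tumor table, so whole UMIs were recovered and divided by those totals. Recovered UMIs summed to 1.02 times the authors' total in the median homozygous islet cell and 1.03 times in the median tumor cell. Each table's gene rows thus sum to about that table's own total. The ratios cannot show whether islet and tumor rows count the same kind of UMI. That difference goes with tumor against islet, and its part in the result was not tested. Cluster and library nearly coincided: tumor cluster 3 held 511 cells of A, cluster 1 held 853 of B, and clusters 2 and 4 held 708 and 389 of C. No cell name occurred in 2 libraries.

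The labels and the rule were checked on markers. Gcgr had 0, 0 and 2 UMIs in the tumor cells and 0 in cluster 2.1, against 2.11 CPM in heterozygous alpha cells. Of 10 alpha cell markers, at most 1 was at 0 in any library (Loxl4), and their summed level was 447710, 418860 and 419810 CPM in the tumors and 433390 in cluster 2.1. The summed level of 9 beta cell markers was 7.89, 126 and 2928 CPM in the tumors and 12842 in cluster 2.1. Most of that sum came from Ins1, Ins2 and Iapp, at 2646, 7160 and 2997 CPM in cluster 2.1. Of the other markers, Ucn3 and Pdx1 were below cluster 2.1 in each tumor library. For Nkx6-1, G6pc2 and Slc2a2 cluster 2.1 lay within the tumor range. Slc38a5, which chose the cluster and is given as a description, stood at 1013, 1777 and 1677 CPM in tumors A, B and C and at 1035 in cluster 2.1. Tumor A lay at the cluster's level and tumors B and C above it. Slc38a5 was at 234 CPM in the other non-cycling homozygous alpha cells (cluster 2.2) and at 84.3 in heterozygous alpha cells.

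The share of cells that met the rule was 68.2% in tumor A (exact 95% interval 64.0 to 72.2), 69.6% in B (66.4 to 72.7), 55.9% in C (52.9 to 58.8) and 92.8% in cluster 2.1 (91.0 to 94.4). These intervals cover counting error only. After each cell was thinned to 5000 UMIs, the shares were 85.3%, 88.8%, 79.5% and 95.9%, and cluster 2.1 was still the highest. Just outside the rule were cells with exactly 1 of the 11 genes, and counting them in gave 88.5%, 90.1%, 85.9% and 98.7%. Mitosis genes that the rule did not use were low in members of both kinds: of 29 such genes, 10 passed the filter on low values, and the summed level of the list was 319, 301 and 337 CPM in the tumors and 314 in cluster 2.1. Of those 10, 3 were higher in each tumor library, 2 were lower in each and none passed the threshold. Among all genes tested, 51.8% were higher in each tumor library and 10.4% lower.

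Across 9902 genes at 5 CPM or more in 2 of the 4 libraries, limma called 12 genes higher in the tumors, 0.121% of those tested, and 0 lower (0%). At an unadjusted p under 0.05, 1329 genes were higher (13.4%) and 80 lower (0.808%). DESeq2 on recovered UMIs called 160 higher and 27 lower, and the quasi-likelihood test of edgeR called 0 in either direction. With 1 islet library the error comes from the 3 tumor libraries, and the islet library is assumed to vary like them. Without tumor A 2 genes were called higher, 1 of them among the 12, without B 76 (and 1 lower) and without C 10. The median gene was 0.29 higher in the tumors on the log2 scale. All 3 tumor libraries were above cluster 2.1 for 5125 genes (51.8%) and below it for 1027 (10.4%). With 8 hormone transcripts left out of each cell's total, those shares became 32.4% and 25.2%, so group medians below are given relative to the median gene. The counts at an unadjusted limma p under 0.05 moved too. They were 669 higher and 278 lower of 11345 genes under those totals. With TMM scaling they were 539 higher and 340 lower of 9902. The share of 13.4% set beside the lists below thus holds for the main scaling only.

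**Figure D1:**
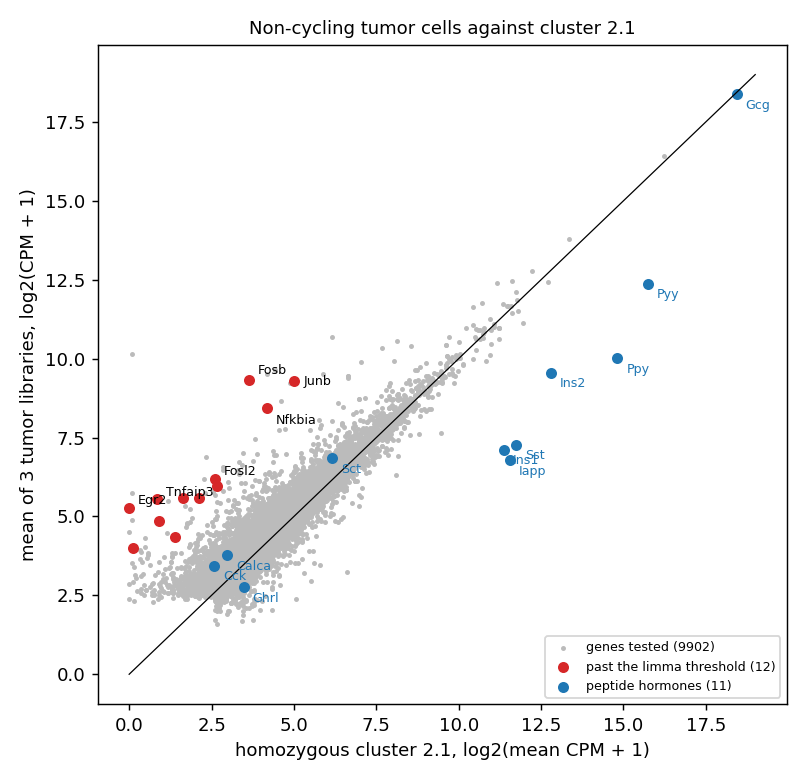
Mean level of the 3 tumor libraries (vertical axis) against non-cycling cluster 2.1 cells (horizontal axis), both as log2(CPM + 1), for the 9902 genes tested; the line marks equal levels. The 12 genes past the limma threshold (red) lie above the line, and among the 11 peptide hormones (blue) Gcg lies near it while Ppy, Pyy, Sst, Iapp, Ins1 and Ins2 lie below it.

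Promoter sequences are shown for the 5 called genes of the immediate early and NF-kappaB lists with a window that reaches outside the annotated gene, because these genes were high together. They are the AP-1 subunit genes Fosb, Junb and Fosl2, the NF-kappaB inhibitor gene Nfkbia, and Tnfaip3, which encodes the ubiquitin-editing enzyme A20 that ends NF-kappaB signaling. The windows come from RefSeq (build GRCm38.p6) and run 5′ to 3′ on the gene's strand, up to the last base before the listed start except for Fosb. They are chr7:19310119-19310295 (minus strand) for Fosb, chr8:84978749-84978998 (minus) for Junb, chr5:32136222-32136471 (plus) for Fosl2, chr12:55492648-55492897 (minus) for Nfkbia and chr10:19015411-19015660 (minus) for Tnfaip3. The listed Fosb start lies inside the annotated gene, so its line holds the 177 bases outside the gene and leaves out the 73 bases between them and that start. Capitals mark matches to 4 motifs searched on both strands: the CRE (TGACGTCA), the AP-1 site (TGANTCA), the CArG box bound by serum response factor, and the NF-kappaB site.
Fosb: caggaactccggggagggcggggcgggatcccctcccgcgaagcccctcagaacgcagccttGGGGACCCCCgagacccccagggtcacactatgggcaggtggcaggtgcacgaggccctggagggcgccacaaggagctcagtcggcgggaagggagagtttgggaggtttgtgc
Junb: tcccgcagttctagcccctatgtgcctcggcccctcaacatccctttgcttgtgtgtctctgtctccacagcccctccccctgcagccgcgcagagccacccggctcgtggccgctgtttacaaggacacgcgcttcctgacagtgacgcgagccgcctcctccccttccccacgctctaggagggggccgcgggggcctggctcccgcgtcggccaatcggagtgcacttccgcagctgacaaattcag
Fosl2: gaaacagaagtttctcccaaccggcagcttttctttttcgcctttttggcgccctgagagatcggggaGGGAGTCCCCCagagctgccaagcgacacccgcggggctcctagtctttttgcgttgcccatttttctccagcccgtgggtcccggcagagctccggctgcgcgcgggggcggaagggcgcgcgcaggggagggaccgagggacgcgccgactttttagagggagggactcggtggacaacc
Nfkbia: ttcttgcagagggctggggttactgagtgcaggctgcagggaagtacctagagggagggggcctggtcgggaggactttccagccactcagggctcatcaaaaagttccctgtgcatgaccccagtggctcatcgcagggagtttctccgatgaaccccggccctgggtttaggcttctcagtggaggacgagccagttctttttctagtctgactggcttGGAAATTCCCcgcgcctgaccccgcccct
Tnfaip3: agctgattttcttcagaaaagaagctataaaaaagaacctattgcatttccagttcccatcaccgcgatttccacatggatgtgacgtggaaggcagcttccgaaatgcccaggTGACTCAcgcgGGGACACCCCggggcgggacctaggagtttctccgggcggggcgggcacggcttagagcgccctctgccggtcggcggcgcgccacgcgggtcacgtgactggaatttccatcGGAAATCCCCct

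In these lines Fosb had an NF-kappaB match starting at -188 from its listed start, Fosl2 had overlapping ones at -182 and -181, Nfkbia had one at -29, and Tnfaip3 had them at -125 and -12 beside an AP-1 match at -136. Junb had no match to the 4 motifs in its window. Windows were found for 9 of the 12 called genes. An NF-kappaB match stood in a window of 4 of those 9 genes, 5 of 23 immediate early genes and 6 of 20 NF-kappaB and interferon genes, against 5.41% of the 7672 tested genes with a window and 4.46% of the 27025 genes in the table. Genes with more windows have more chances of a match, and the 9 called genes had 17 windows. By window the shares were 23.5% for the called genes and 4.44% of 9929 windows for the tested genes. A CArG box stood in 2 of the 9 (Egr2 and Rnd3) and 1.43% of the tested genes, an AP-1 match in 2 (Tnfaip3 among them) and 5.06%, and a CRE in 0 and 3.43%. Of the 23 immediate early genes, 3 had a CArG box, 3 a CRE and 0 an AP-1 match. A match is a run of letters and not a measured binding site.

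Fosb, on chromosome 7 from 19302696 to 19310118, was at 736, 541 and 661 CPM in tumors A, B and C and at 11.3 CPM in cluster 2.1. The 3 tumor values lay close together and far above the islet value. The log2 difference was 5.70 ± 0.34 (SE; 3 libraries against 1), with a limma adjusted p of 0.030. After thinning to 5000 UMIs, a Fosb UMI was found in 78.9%, 76.2% and 74.96% of tumor cells and in 4.07% of cluster 2.1 cells. The share that free RNA gives was not measured in the tumor libraries, so these are shares of cells with a UMI, not of expressing cells. Levels were 19.6 CPM in cluster 2.2, 116 in heterozygous alpha cells and 91.7 in homozygous islet endothelial cells.

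Junb, another AP-1 subunit, was at 509, 641 and 717 CPM in the tumors and at 31.3 in cluster 2.1. No tumor library came near the islet level, and the log2 difference was 4.26 ± 0.35 (limma adjusted p = 0.042). Junb reached 396 CPM in heterozygous alpha cells and 1638 in homozygous endothelial cells, so a high level was not limited to tumors. Fosl2, which encodes the AP-1 subunit Fra-2, was at 75.2, 53.1 and 87.2 CPM against 5.03, a log2 difference of 3.57 ± 0.35 (adjusted p = 0.046). Unlike Junb, Fosl2 was also low in heterozygous alpha cells, at 1.43 CPM.

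Egr2, a zinc finger transcription factor, was at 38.6, 22.9 and 51.1 CPM in the tumors. Cluster 2.1 had 0 Egr2 UMIs, which allows up to 0.229 CPM by the limit of 3 counts in that group. The tumor mean was thus at least 164-fold higher (limma adjusted p = 0.046). Heterozygous alpha cells, cluster 2.2 and the endothelial cells were also at 0 CPM. No limit was computed for them, and the endothelial cells had a median of only 2061 UMIs per cell.

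Genes of the same list that missed the threshold had levels of similar order. Egr1 was at 557, 289 and 364 CPM against 23.4 (log2 difference 3.996 ± 0.44, limma adjusted p = 0.062). Nr4a1, an orphan nuclear receptor, was at 138, 154 and 93.3 CPM against 10.0 (adjusted p = 0.057). Srf, the serum response factor itself, was at 111, 73.8 and 109 CPM against 9.81 (adjusted p = 0.062). Atf3, a stress-induced transcription factor, was at 182, 50.3 and 117 CPM against 4.04. In all 4 genes the lowest tumor library lay above the islet level several times over, and the tumor libraries differed among themselves most for Atf3. Egr4, which is not on the list, was at 17.8, 67.7 and 71.2 CPM against 0.058 (adjusted p = 0.12).

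Over the whole list, 28 of 30 immediate early genes passed the filter on low values, 27 were above cluster 2.1 in each tumor library (51.8% of all genes) and 25 had an unadjusted p under 0.05 in that direction (13.4% of all genes). The exception was Rgs2, a brake on G protein signaling, at 19.8, 10.8 and 10.9 CPM in the tumors and 46.8 in cluster 2.1. The list's median stood 2.19 above the median gene on the log2 scale, and the same 27 to 1 split was found with hormones out of the totals. Within tumor C, 27 of the 28 were above cluster 2.1 in its cluster 2 and also in its cluster 4. The smallest differences were those of Fos, at 356, 215 and 229 CPM against 126, and Crem, at 109, 161 and 170 against 85.9.

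The low level in cluster 2.1 was not shared by all islet cells. Heterozygous alpha cells exceeded cluster 2.1 in 21 of the 28 genes and reached the lowest tumor library in 11. In other lists they exceeded it in 37 of 50 cytosolic ribosomal protein genes and 11 of 40 nuclear oxidative phosphorylation genes. Fos was at 1537 CPM and Jun at 741 in heterozygous alpha cells, above each tumor library. Non-cycling homozygous alpha cells outside cluster 2.1 exceeded it in 15 of the 28. Fosb was at 19.6 CPM in those alpha cells and 40.9 in homozygous beta cells, and Junb at 40.8 and 45.8. Fosl2 was at 2.01 and 1.71 CPM, and Egr2 at 0 in both. For these called genes both kinds of cell thus lay below every tumor library. The endothelial cells of the homozygous library itself exceeded cluster 2.1 in 25 of the 28. They also did so in 16 of 18 neuroendocrine tumor suppressor genes and 10 of 50 cytosolic ribosomal protein genes. Such counts were not made over all genes tested, so they are not read as a trait of this list. Immediate early transcripts also rise when tissue is dissociated. Each library was dissociated and processed individually, so handling and tumor state cannot be told apart for this list.

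**Figure D2:**
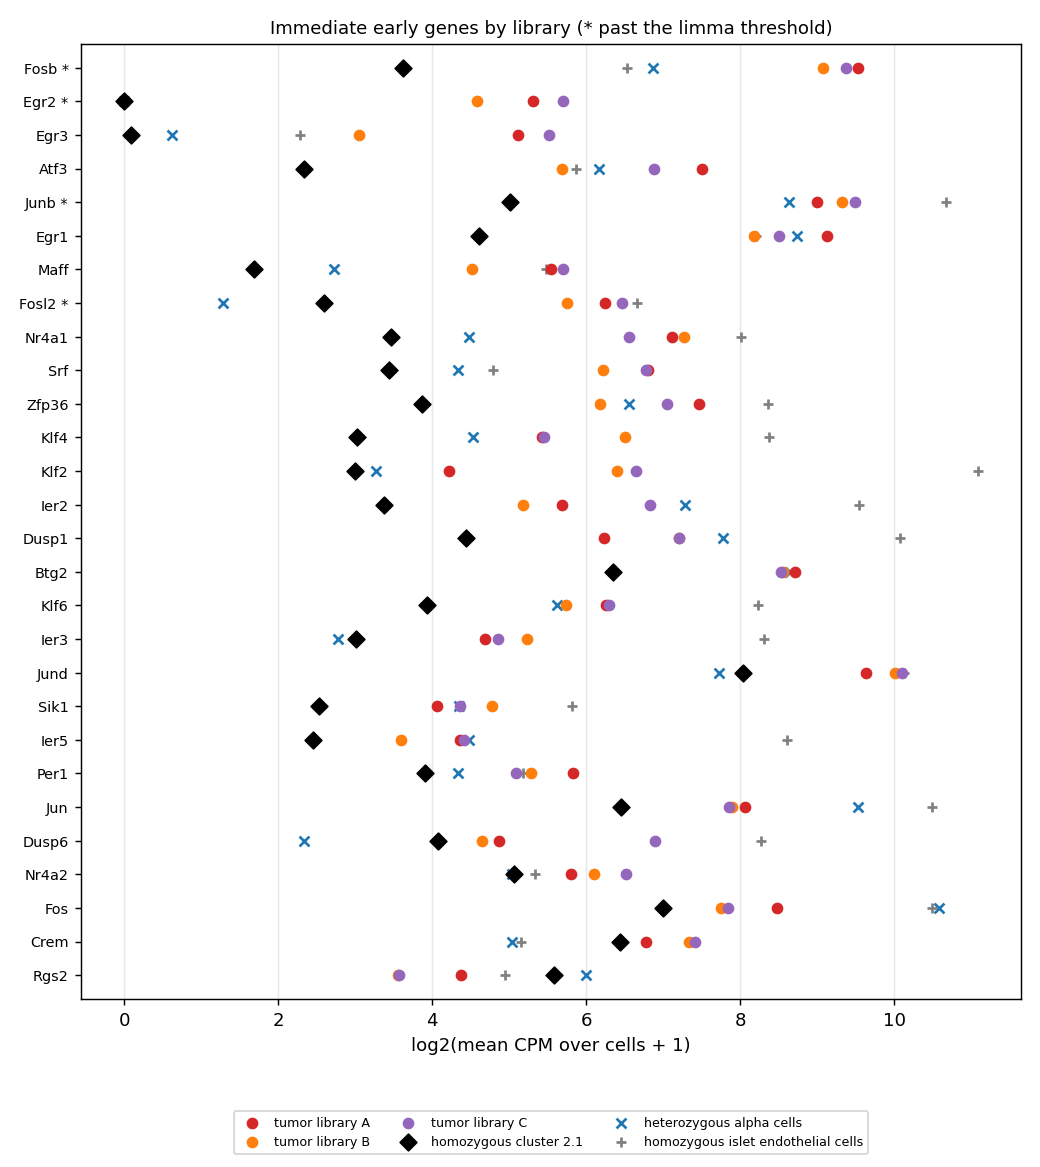
Levels of the 28 immediate early genes tested, as log2(mean CPM over cells + 1), in each tumor library (circles), cluster 2.1 (diamond), heterozygous alpha cells (cross) and homozygous islet endothelial cells (plus), ordered by the tumor difference; an asterisk marks genes past the limma threshold. All 3 circles lie right of the diamond for 27 genes and left of it for Rgs2, while heterozygous alpha cells lie right of every circle for Fos and Jun.

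NF-kappaB feedback genes formed the other group with called members. Nfkbia was at 297, 286 and 451 CPM in the tumors and 17.2 in cluster 2.1, a log2 difference of 4.21 ± 0.38 (limma adjusted p = 0.046). Tnfaip3 was at 35.1, 45.3 and 56.6 CPM against 0.79 from 9 UMIs, a log2 difference of 4.68 ± 0.33 (adjusted p = 0.030). For both genes each tumor library was far above cluster 2.1, and heterozygous alpha cells stood between, at 57.1 CPM for Nfkbia and 2.38 for Tnfaip3. The homozygous endothelial cells held 731 CPM of Nfkbia, above every tumor library, and 18.2 of Tnfaip3. Nfkb2 (17.7, 15.7 and 17.1 against 3.00 CPM) and Relb (19.2, 19.8 and 40.6 against 2.39), which encode the subunits of the non-canonical pathway, did not pass the threshold.

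Among interferon-induced genes, those named here differed between tumors. Ifit1, an antiviral RNA-binding protein, was at 27.5 and 43.1 CPM in tumors A and C but at 2.87 in tumor B, beside 2.33 in cluster 2.1. Cxcl10, a chemokine, was at 26.6, 1.49 and 37.3 CPM, with 0 UMIs in cluster 2.1. From the list of MHC antigen presentation, B2m, the light chain of MHC class I, was at 801, 246 and 1797 CPM against 130 (limma adjusted p = 0.36), and H2-K1, a class I heavy chain, at 817, 413 and 698 against 359. In each of these 4 genes tumor B was the lowest tumor and A and C were higher. Of the 24 genes of the NF-kappaB and interferon list, 21 were above cluster 2.1 in each tumor library, 2 were called and 12 had an unadjusted p under 0.05, against 51.8% and 13.4% of all genes. Leaving hormones out of the totals, 20 were above (83.3%, against 32.4% of all genes). Endothelial cells of the homozygous library exceeded cluster 2.1 in 22 of the 24, and heterozygous alpha cells in 15. Non-cycling homozygous alpha cells outside cluster 2.1 exceeded it in 6. These counts from other cells were not made over all genes tested, so they are not read as a trait of this list. The list median was 1.69 above the median gene. With the 2 genes at 0 UMIs in cluster 2.1 set to their limit, the median log2 difference was 1.95 in place of 1.98.

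The summed level of the 7 macrophage markers found of 8 was 123, 31.4 and 115 CPM in tumors A, B and C and 42.8 in cluster 2.1. Tumor B was the lowest library there too, below cluster 2.1. None of the 7 was at 0 in any library, and their part in the result was not tested. The summed endothelial markers were 43.2, 5.91 and 57.0 CPM in the tumors and 37.2 in cluster 2.1, against 16359 in endothelial cells, with none of the 8 at 0. Of 15 genes of MHC antigen presentation, 11 (73.3%) were above cluster 2.1 in each tumor library, against 51.8% of all genes, and none was called. Under totals without hormones 7 (46.7%) were above, against 32.4%.

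**Figure D3:**
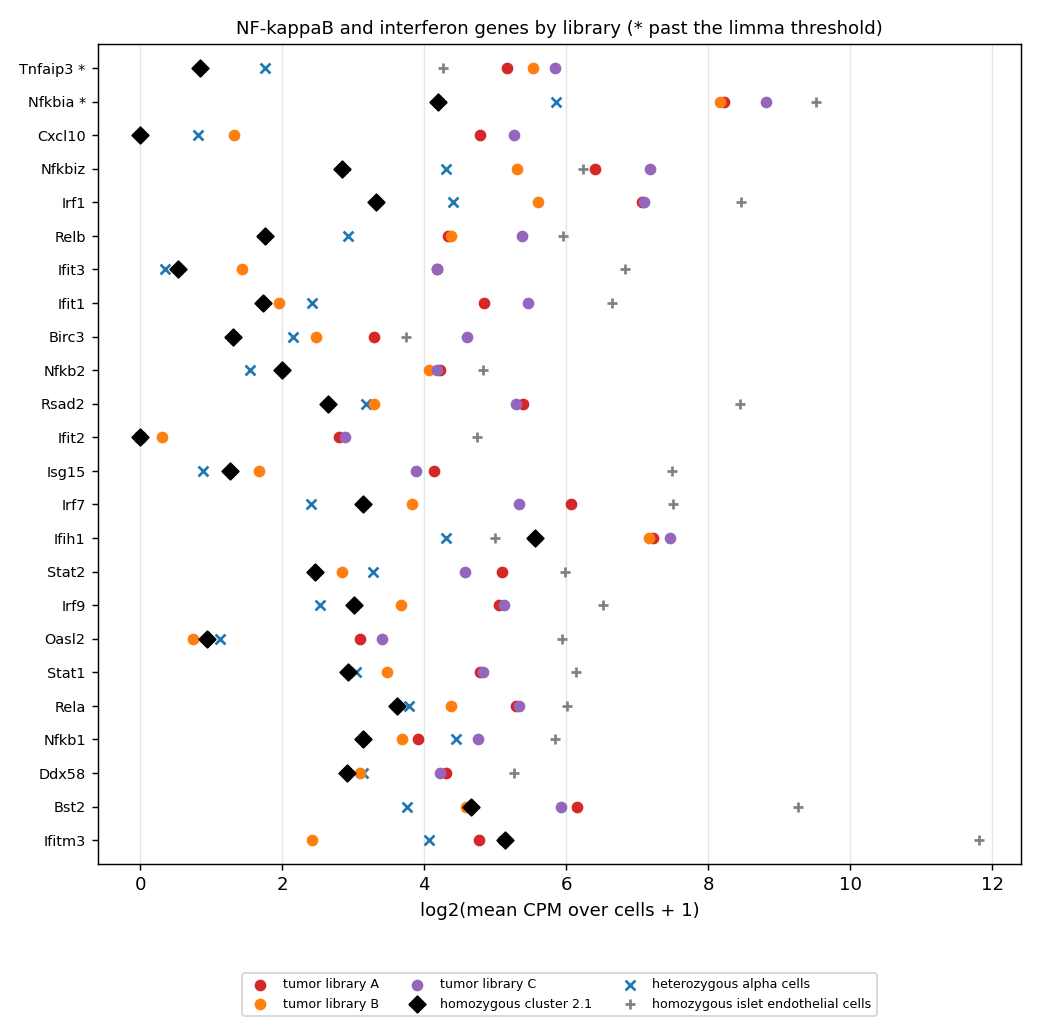
Levels of the 24 NF-kappaB and interferon genes tested, drawn as in the plot of immediate early genes. Nfkbia and Tnfaip3 (asterisks) are high in all 3 tumor libraries, whereas for Ifit1, Cxcl10 and Ifit3 tumor library B lies near cluster 2.1.

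Other called genes belong to no list. Csrnp1, a nuclear transcription factor, was at 50.6, 35.1 and 54.4 CPM against 3.38, a log2 difference of 3.42 ± 0.33 (limma adjusted p = 0.046). Rnd3, an atypical small GTPase, was at 17.9, 17.8 and 22.0 CPM against 1.62. For these genes every tumor library was above cluster 2.1, and heterozygous alpha cells were below every tumor library, at 6.44 CPM for Csrnp1 and 3.95 for Rnd3. Socs3, the cytokine signaling inhibitor, was at 140, 70.5 and 70.7 CPM against 6.13 and did not pass (adjusted p = 0.081).

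Gt(ROSA)26Sor, the noncoding transcript of the Rosa26 locus, was called at 35.3, 41.2 and 63.3 CPM in the tumors against 2.12 in cluster 2.1. The tables also hold the reporter transcript tdTomato, at 814, 737 and 985 CPM in the tumors, 454 in cluster 2.1 and 548 in heterozygous alpha cells. The labels name no reporter. Xlr3a, an X-linked gene with near-identical copies whose counts are therefore uncertain, was called at 30.6, 29.2 and 23.4 CPM against 0.87. Within tumor C it was at 34.7 CPM in cluster 2 and 0.42 in cluster 4, so cluster 4 matched the islet level. The predicted gene LOC102637362 was called at 15.4, 18.1 and 11.9 CPM, with 1 UMI in cluster 2.1.

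No gene was called lower, and the 12 named for the largest distance below cluster 2.1 are values only. Ppy, pancreatic polypeptide, was at 2391, 233 and 479 CPM in the tumors against 28882 in cluster 2.1. Pyy, peptide YY, was at 3340, 10917 and 1576 CPM against 54836. Sst, somatostatin, was at 10.3, 0.43 and 447 CPM against 3454, and Ins2, insulin, at 0.79, 1.57 and 2234 against 7160. Every tumor library lay below cluster 2.1 for these 4 hormones and for Ins1 and Iapp, and tumor C was the highest tumor for Sst, Ins1, Ins2 and Iapp. Non-cycling cluster 2.2 cells held 146250 CPM of Ppy, 129510 of Pyy, 2946 of Sst and 6397 of Ins2. Heterozygous alpha cells held 16290, 18043, 1019 and 39871 CPM of them. The homozygous endothelial cells, which do not make these hormones, had a median of 2061 UMIs per cell against 14508 in cluster 2.1. They held 11728 CPM of Ppy, 5702 of Ins2 and 2374 of Sst. These levels lay with the same library as the higher values of cluster 2.1, and their part in the result was not tested.

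**Figure D4:**
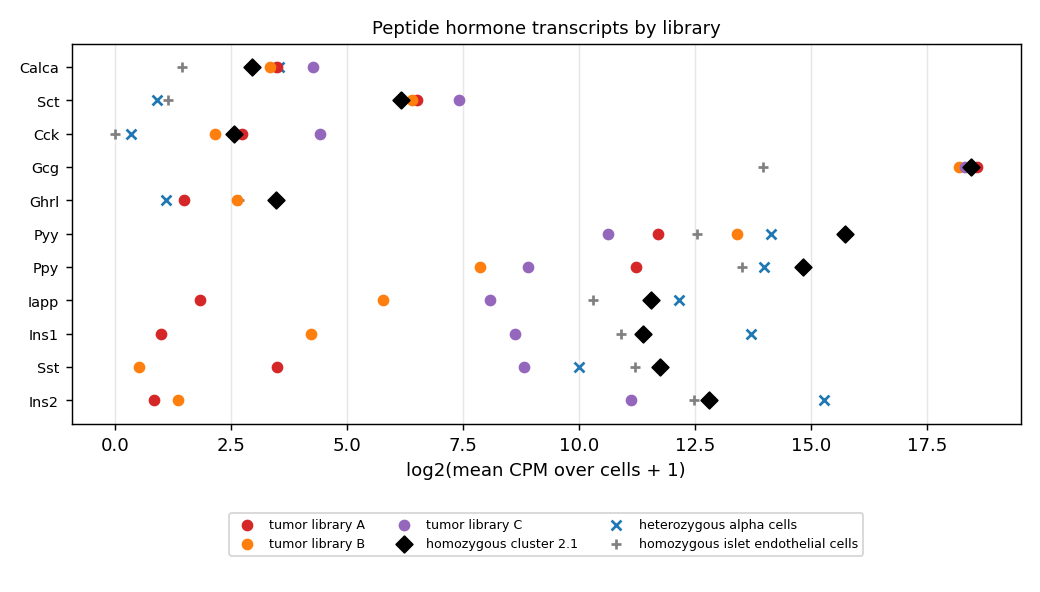
Levels of the 11 peptide hormone transcripts tested, drawn as in the plot of immediate early genes. Gcg overlaps between tumors and cluster 2.1, while Pyy, Ppy, Iapp, Ins1, Sst and Ins2 lie lower in each tumor library, and the homozygous endothelial cells hold Ppy, Ins1, Ins2, Sst and Iapp above every tumor library.

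Outside the hormones, Cldn7, a tight junction claudin, was at 4.70, 15.6 and 5.05 CPM against 97.8 (limma adjusted p = 0.18). Cited2, a transcriptional coregulator, was at 31.01, 31.8 and 24.5 CPM against 84.7, and Mgst3, a glutathione transferase, at 23.6, 33.4 and 26.2 against 75.7. Cd59a, an inhibitor of complement, was at 77.3, 95.4 and 64.3 CPM against 274, and within tumor C at 7.67 in cluster 2 and 181 in cluster 4. Hspa1a, the inducible heat shock protein, was at 2.36, 5.00 and 22.5 CPM against 54.0, and at 416 in heterozygous alpha cells. The pseudogene Pisd-ps3 was at 36.3, 24.2 and 32.0 CPM against 88.4. These 6 genes were below cluster 2.1 in all 3 tumor libraries without passing the threshold.

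Alpha cell identity and secretion genes sat close to cluster 2.1. Gcg was at 393540, 298390 and 328760 CPM in the tumors and 355350 in cluster 2.1, which lay inside the tumor range. The convertase Pcsk2, which cuts proglucagon, was at 6597, 4538 and 2122 CPM against 3436, and the granule protein Chga at 9602, 5864 and 5392 against 4805. Of 28 genes of hormone processing and secretion, 13 were above and 3 below cluster 2.1 in each tumor library, near the shares of all genes, and none was called. With hormones out of the totals 6 were above and 8 below. None of 6 alpha cell transcription factors tested was called, and 3 were above and 0 below cluster 2.1 in each tumor library. Of 17 islet transcription factors, 13 (76.5%) were above, against 51.8% of all genes, and 0 were called. When hormones were left out of the totals, 9 (52.9%) were above, against 32.4%. Neurod1 was at 147, 208 and 227 CPM against 95.8.

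Among 19 amino acid transporters tested of 30, a list that holds Slc38a5, 17 were above cluster 2.1 in each tumor library, 8 had an unadjusted p under 0.05 and 0 were called, against 51.8% above and 13.4% with that p among all genes. Slc38a2, a glutamine carrier, was at 75.6, 68.6 and 97.4 CPM against 16.6 (limma adjusted p = 0.11), and at 71.5 in heterozygous alpha cells. Slc38a4, another neutral amino acid carrier, was at 178, 217 and 170 CPM against 91.9, and Slc7a2, a carrier of arginine and lysine, at 192, 171 and 193 against 95.3. For the 3 genes every tumor library was above the islet level. The list median was 0.39 above the median gene. With hormones out of the totals 10 of 19 (52.6%) were above in each library, against 32.4% of all genes. Ddc, the decarboxylase that makes dopamine and serotonin, was the highest of 20 amino acid catabolism genes tested, with 118, 244 and 278 CPM against 43.8 (limma adjusted p = 0.22). Of those 20, 9 (45.0%) were above in each tumor library and 0 were called, and their median lay 0.04 below that of all genes.

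Stress pathways of amino acid supply and of the endoplasmic reticulum were read from other lists. Atf4, the transcription factor of the amino acid response, was at 171, 233 and 267 CPM against 54.0 (limma adjusted p = 0.18). Of its list, 8 of the 19 tested genes of the ATF4 list were above in each tumor library, Atf4 among them, and the list median lay 0.08 below that of all genes. Hspa5, also called BiP, a chaperone of that compartment's lumen, was at 511, 657 and 622 CPM against 242, and Herpud1, a part of its degradation machinery, at 178, 147 and 139 against 51.9. Of 20 unfolded protein response genes, 14 (70.0%) were above and 0 below in each tumor library, and none was called, against 51.8% above and 10.4% below among all genes. With hormones out of the totals 10 were above, against 32.4% of all genes. In all 20 the heterozygous alpha cells were below the lowest tumor library. They reached that library in 41 of 50 cytosolic ribosomal protein genes and 2 of 12 mitochondrially encoded genes. No such count was made over all genes tested.

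Most mitochondrially encoded transcripts were above cluster 2.1, as was the mitochondrial share of UMIs. Of 12 tested, 10 were above cluster 2.1 in each tumor library under both scalings, 5 had an unadjusted p under 0.05, none was called and the median was 1.05 above the median gene. ND2, a subunit of complex I, was at 1291, 941 and 1665 CPM against 204, and the ribosomal RNA Rnr1 at 133, 81.1 and 106 against 12.6 (limma adjusted p = 0.073). Of 40 nuclear genes of oxidative phosphorylation, 6 were above, 4 below and 30 overlapped cluster 2.1, against 51.8% above and 10.4% below among all genes. With hormones out of the totals 4 were above and 17 (42.5%) below, against 32.4% and 25.2%. Of 50 cytosolic ribosomal protein genes, 14 were above and 36 overlapped, against 9 above and 5 below with hormones out of the totals.

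Markers of the Slc38a5-high state, which had been picked from these cells and so are a description, lay on both sides. Of 13, 7 overlapped, 3 were above and 3 below, where 3750 of the 9902 genes tested overlapped. Under totals without hormones 1 was above and 5 (38.5%) below, against 25.2% of all genes below. Dapl1, one of the state's leading genes, was at 695, 1315 and 2691 CPM in the tumors and 1616 in cluster 2.1, against 431 in cluster 2.2 and 135 in heterozygous alpha cells. Ccnd2, a D-type cyclin of G1, was at 1920, 1412 and 907 CPM against 2018. Spp1, osteopontin, was at 38.2, 394 and 167 CPM against 707.

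**Figure D5:**
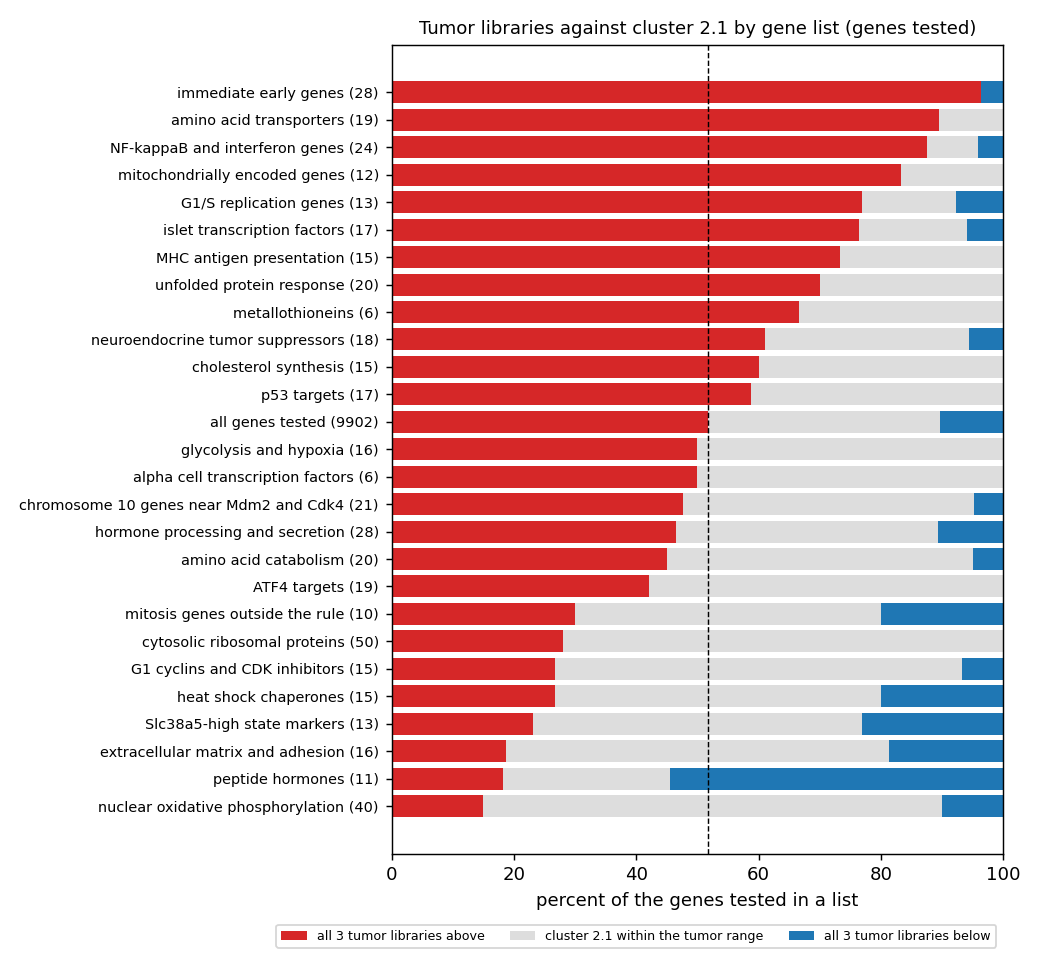
Percent of the tested genes of each list (number tested in brackets) that were above cluster 2.1 in all 3 tumor libraries (red), below it in all 3 (blue) or neither (grey), with the dashed line at 51.8%, the share of all genes tested that were above. Immediate early genes reach 96.4% above and peptide hormones 54.5% below, while nuclear oxidative phosphorylation has the smallest share above, 6 of 40.

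Some genes were high in 1 tumor library only. In tumor C, 30 tested genes were at least 4-fold above tumors A and B and cluster 2.1 on the log2(CPM + 1) scale, and 22 of them (73.3%) lie on chromosome 10, which holds 4.80% of the tested genes. The same rule gave 1 gene in tumor A and 0 in tumor B. In the other direction, 36 genes were at least 4-fold lower in A alone, 33 in B and 4 in C. In both directions some symbols had the same or nearly the same values in every library. These counts can therefore exceed the number of separate signals. Mdm2, which degrades p53, was at 50.7, 47.0 and 1700 CPM against 28.5 in cluster 2.1. Cdk4, the kinase partner of D-type cyclins, was at 88.3, 150 and 1852 CPM against 99.0. In tumor C both were high in cluster 2 (2453 CPM for Mdm2 and 2659 for Cdk4) and less so in cluster 4 (166 and 216). Lss, a cholesterol synthesis enzyme gene on chromosome 10, was at 8.94, 8.16 and 196 CPM against 3.83.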

How the data were processed

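Single cells of 3 tumor libraries and 2 islet libraries were deposited as 3 tables. Per the file headers, the deposited values are a normalized signal, the UMIs of a gene over the cell's total times a constant, and the totals are counts. The submitters' processing notes name CASAVA 1.8, bcl2fastq 2.17, GSNAP and GRCm38, without their roles. Whole UMIs were recovered by multiplying back (100% within 0.01 of a whole number, 36529 gene rows), and divided by the cell's deposited total to give CPM.

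Members, gene lists and named genes were chosen with earlier results of these data known. Clusters and cell types are those in the authors' deposited tables. Scrublet (scanpy 1.11.5, expected rate 0.06) called 24, 8, 11 and 2 doublets in tumors A, B, C and the homozygous islet library. Without them 336, 587, 609 and 878 members remained, with 6489180, 15676700, 11550961 and 13093997 UMIs.

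The mean CPM over member cells of a library was log2-transformed after adding 1 CPM and tested with limma 3.58.1 (R 4.3.3, trended prior variance, Benjamini-Hochberg at 0.05) on genes at 5 CPM in 2 libraries. The log2 scale with this pseudocount understates changes of low genes. The procedure was tested on simulated data. At a simulated dispersion (spread between libraries) of 0.05 it recovered 89.7% of log2 changes of 2 and 8.89% of log2 changes of 1. At a dispersion of 0.2 those shares were 11.0% and 0%. A gene that was not called may therefore still differ. Count tests on recovered UMIs (edgeR 4.0.16, DESeq2 1.42.0) were alternatives, beside other scalings, pseudocounts, filters, cycle rules and cell sets and leaving out each tumor library. Named genes were the 12 called genes each way with the largest change, at 50 CPM or more in an arm, with all tumor libraries on 1 side and no predicted symbol (filled with uncalled genes ranked by the nearest tumor library), up to 4 called genes per list or else its 2 highest members, and Gcgr, Gcg and Slc38a5. The remaining called genes and list members were named after their values were seen. Of 36529 gene IDs, 31049 matched the RefSeq table (GRCm38.p6). Strand of counting and the doublet treatment before deposit are not given in the sources used here. Some genes, 1 called gene among them, are not reported here.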

Additional observations from a re-analysis of the deposited data

How the results depend on the processing

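The number of genes called higher depended on the processing: 12 became 6 with TMM scaling, 1 with a pseudocount of 5 CPM, 0 without a filter, 22 with a filter of 20 CPM, 1 with limma without a trend, 0 with edgeR, 160 with DESeq2 and 4 without the cycle rule. Genes called lower were 0 except 27 with DESeq2. Leaving out 1 tumor library gave 2 to 76 higher and 0 to 1 lower. A filter of 5 CPM in 1 library, chosen after seeing the data, gave 15. The share of cells meeting the cycle rule moved to 85.3%, 88.8%, 79.5% and 95.9% (tumors A, B, C and cluster 2.1) after thinning and to 88.5%, 90.1%, 85.9% and 98.7% with at most 1 cycle gene. The share with a Slc38a5 UMI, 96.4%, 99.7%, 99.3% and 93.3%, moved to 86.0%, 97.4%, 96.7% and 85.3% after thinning. Fosb stayed between 5.31 and 5.93 on the log2 scale, Junb between 3.93 and 4.39 and Nfkbia between 3.88 and 4.33. Their adjusted p did not hold everywhere, reaching 0.29 without a filter. Fosb lost its call there and with edgeR. Junb and Nfkbia also lost theirs with a pseudocount of 5 CPM, without a trend, without the cycle rule and without tumor A, Junb without tumor C and Nfkbia with TMM scaling. Of the 12 genes, 1 was still called without tumor A, 12 without B and 7 without C.

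Among 70 named genes, 15 changed direction somewhere, and the cause was not tested. With TMM scaling the log2 differences were Pcsk2 -0.11, Atp5e -0.11, Ndufa1 -0.30, Rps14 -0.32, Rplp1 -0.24, Pkm -0.13, Dut -0.14 and Hsp90ab1 -0.16. With hormones out of the totals, Pcsk2 was -0.039, Atp5e -0.073, Ndufa1 -0.25, Rps14 -0.26, Rplp1 -0.20, Pkm -0.056, Dut -0.097 and Hsp90ab1 -0.079. With edgeR, Atp5e was -0.060, Ndufa1 -0.25, Rps14 -0.27, Rplp1 -0.13, Aldoa -0.11, Pkm -0.17, Dut -0.17 and Hsp90ab1 -0.18. With DESeq2, Atp5e was -0.043, Ndufa1 -0.23, Rps14 -0.25, Rplp1 -0.12, Aldoa -0.088, Pkm -0.16, Dut -0.15 and Hsp90ab1 -0.16. Against all homozygous alpha cells, Gcg was 0.031, Isl1 0.15, Gars 0.060 and Dapl1 0.24. Leaving out 1 tumor library at a time, the log2 differences ranged over Gcg -0.18 to 0.018, Pcsk2 -0.15 to 0.67, Isl1 -0.22 to 0.025, Atp5e -5.4e-05 to 0.38, Ndufa1 -0.33 to 0.28, Rps14 -0.27 to 0.27, Rplp1 -0.10 to 0.41, Mt1 -0.83 to 0.65, Dapl1 -0.76 to 0.22 and Cd24a -0.27 to 4.13. The reversal came without tumor A for Pcsk2, Isl1, Rplp1 (-0.10) and Dapl1, without B for Gcg, Atp5e, Ndufa1, Rps14, Rplp1 and Mt1, and without C for Cd24a. Without tumor cluster 2, Mt1 was 0.091, and without cluster 4, Ndufa1 was -0.0027 and Rps14 -0.023.

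No paired analysis was possible because the islet group has 1 library. One islet library gives no spread of its own, and a gene with few UMIs in cluster 2.1 has an uncertain level.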
